A study of Mus musculus with 6 samples.

Results

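Gene desert peaks were defined by distance: peaks of the ATAC-seq table to which the authors assigned no gene and whose centre lies at least 200000 bp from the centre of every peak with a Gene ID on the same chromosome. On chromosomes 1 to 19, 2255 of the 75412 peaks in the table (2.99%) met this rule. A further 36859 peaks without a Gene ID on these chromosomes lay nearer, and 34403 peaks carried a Gene ID. The distance of the 2255 peaks, called remote peaks here, to the nearest peak with a Gene ID ranged from 200065 to 3073672 bp, with a median of 301751 bp.

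The libraries come from ATAC-seq, which marks accessible DNA by insertion of adapters with the transposase Tn5. Muscle stem cells (MuSCs) were studied directly after isolation from control and Taf4a sKO mice, with 3 libraries per genotype. Taf4a sKO mice carried the tamoxifen-inducible Pax7-CreERT driver and floxed Taf4a alleles on both chromosomes, and tamoxifen removed exons 11 and 12 in cells that express Pax7. Controls were littermates that were also Taf4a flox/flox, with or without the Cre driver, so that both genotypes share the floxed alleles. The sources do not say whether the controls of these libraries received tamoxifen, or which of them carried the driver. Mice were adults of both sexes on the C57BL/6 background, and MuSCs were sorted as Integrin-alpha7 positive cells after removal of cells with Sca1, CD45 or CD31, or by the green fluorescence of a Pax7 reporter that some mice of both genotypes carried, and the sources do not say which applied to a library. The labels do not say whether a library holds cells of 1 mouse, so the p-values measure the spread between these libraries. Values are reads per peak that the authors scaled for sequencing depth and rounded. They summed to between 35226223 and 44311913 per library over all peaks, and the read depth behind a single value was not recovered here.

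Gene deserts are long stretches of the genome without protein-coding genes. Accessible sites in them are often enhancers, which bind transcription factors and act on promoters over long distances, and many flank genes for developmental regulators and adhesion molecules. TAF4A is a subunit of TFIID, the complex that recognizes core promoters and starts assembly of the transcription machinery. MuSCs are the quiescent stem cells of skeletal muscle, which rest beneath the basal lamina of the myofibre until injury activates them.

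The sequences below show what the DNA of such sites looks like. They are the 300 bases around the centre of the 2 remote peaks with the smallest p among those lower in Taf4a sKO MuSCs, the 2 with the smallest p among those higher, the one of highest mean value and the one farthest from a peak with a Gene ID. Coordinates are those of GRCm38 (mm10), the strand shown is the plus strand, and names give the gene whose coding start is nearest or whose intron holds the peak. Capitals mark matches, on either strand, to any of the 11 motifs searched, which are given beside their frequencies, 8 of them with their letters.
Celf2-side peak, chr2:8112544-8112843: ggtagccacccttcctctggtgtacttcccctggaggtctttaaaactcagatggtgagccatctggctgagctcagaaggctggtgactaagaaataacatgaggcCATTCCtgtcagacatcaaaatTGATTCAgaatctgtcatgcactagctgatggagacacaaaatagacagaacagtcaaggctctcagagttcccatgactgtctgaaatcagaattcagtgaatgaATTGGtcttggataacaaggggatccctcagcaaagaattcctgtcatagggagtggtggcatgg
Rwdd3-side peak, chr3:120814310-120814609: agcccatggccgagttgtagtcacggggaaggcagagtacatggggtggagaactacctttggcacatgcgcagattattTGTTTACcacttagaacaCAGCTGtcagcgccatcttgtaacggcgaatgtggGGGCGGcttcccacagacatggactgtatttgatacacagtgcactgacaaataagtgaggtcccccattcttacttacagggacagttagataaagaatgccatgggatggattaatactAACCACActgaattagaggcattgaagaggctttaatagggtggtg
Vstm2a-side peak, chr11:15919599-15919898: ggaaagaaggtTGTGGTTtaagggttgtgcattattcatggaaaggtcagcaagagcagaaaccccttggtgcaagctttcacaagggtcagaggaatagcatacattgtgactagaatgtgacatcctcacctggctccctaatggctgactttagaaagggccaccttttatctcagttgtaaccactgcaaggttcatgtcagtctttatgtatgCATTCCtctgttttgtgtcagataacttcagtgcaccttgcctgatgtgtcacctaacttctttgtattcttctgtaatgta
Tmem182-side peak, chr1:41652499-41652798: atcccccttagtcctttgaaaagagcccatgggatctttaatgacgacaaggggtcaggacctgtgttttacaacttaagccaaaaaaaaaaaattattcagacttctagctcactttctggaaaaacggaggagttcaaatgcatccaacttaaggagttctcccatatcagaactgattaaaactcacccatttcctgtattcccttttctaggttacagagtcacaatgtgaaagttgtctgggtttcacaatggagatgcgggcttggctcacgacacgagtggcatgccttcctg
Rad51b intron peak, chr12:79511878-79512177: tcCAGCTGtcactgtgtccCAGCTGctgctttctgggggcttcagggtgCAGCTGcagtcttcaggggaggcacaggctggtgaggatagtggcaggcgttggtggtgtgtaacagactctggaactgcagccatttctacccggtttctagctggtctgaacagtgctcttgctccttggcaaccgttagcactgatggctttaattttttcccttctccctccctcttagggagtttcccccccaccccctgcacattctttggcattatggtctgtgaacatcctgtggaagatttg
Most remote peak, chr1:114938279-114938578: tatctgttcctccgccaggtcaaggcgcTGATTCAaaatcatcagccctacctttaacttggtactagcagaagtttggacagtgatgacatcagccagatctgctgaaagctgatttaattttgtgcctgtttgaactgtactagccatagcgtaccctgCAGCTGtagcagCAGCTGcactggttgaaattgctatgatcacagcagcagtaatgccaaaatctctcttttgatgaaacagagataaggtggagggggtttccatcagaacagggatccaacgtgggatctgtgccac

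The Celf2-side window holds 1 match each to the TEAD, AP-1 and NF-Y motifs, the Rwdd3-side window 1 each to the FOX, E-box, GC box and RUNX motifs, and the Vstm2a-side window 1 each to RUNX and TEAD. The Rad51b window holds 3 E-boxes near its 5′ end, the most remote window 2 E-boxes and an AP-1 match, and the Tmem182-side window no match at all. The window of the most remote peak is wider than the 202 bp peak itself, and 87.7% of the peak is marked as repeat in the reference, against a median of 8.12% over all remote peaks.

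The label was checked against the GENCODE vM21 annotation, since the rule measures distance to annotated peaks and not to genes. The centre of 1143 of the 2255 remote peaks (50.7%) lay inside a gene body, and that of 1027 (45.5%) inside a protein-coding gene. The nearest start of a protein-coding gene was at least 200000 bp away for 1907 remote peaks (84.6%), but the start of a gene of any type, long non-coding RNA genes and pseudogenes included, was that far away for 580 (25.7%). A total of 195 (8.65%) were both outside every gene body and at least 200000 bp from the start of any gene. When the alternative starts of annotated transcripts were counted, 61 remote peaks (2.71%) lay within 1000 bp of a start, against 48.05% of the peaks with a Gene ID. The set is therefore described as remote peaks, of which about as many lie within gene bodies as between genes.

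Remote peaks were narrower and weaker than other peaks. Their median width was 461 bp, against 512 bp for nearer peaks without a Gene ID and 728 bp for peaks with one. The median value per remote peak was 92, 93 and 106 in the control libraries and 100, 92 and 92 in the Taf4a sKO libraries. The genotypes overlap in this measure. Nearer peaks without a Gene ID had medians of 129, 129 and 152 in control and 155, 147 and 151 in Taf4a sKO libraries, and peaks with a Gene ID 299, 292 and 344 against 355, 337 and 347. On average these classes stood at 1.105 and 1.111 times the control level in Taf4a sKO libraries, and remote peaks at 0.976 times. This is a ratio of medians, and the summed value of the remote peaks stood at 1.08 times the control level, or 0.97 times with libraries scaled to equal summed value. Per kb of peak, which removes the difference in width, the control mean was 229 ± 17.2 (SD, n = 3) for remote peaks, 279 ± 27.3 (SD, n = 3) for nearer peaks and 476 ± 43.1 (SD, n = 3) for peaks with a Gene ID. Remote peaks held 1.15%, 1.17% and 1.15% of the summed value of all peaks in the control libraries and 1.14%, 1.11% and 1.12% in the Taf4a sKO libraries, with each Taf4a sKO share below each control share.

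The 5 remote peaks of highest mean value lay in long genes. The highest, from 79511267 to 79512788 on chromosome 12, is in an intron of Rad51b, a gene of recombination repair. Its values were 3769, 3285 and 4007 in control and 3526, 3023 and 3019 in Taf4a sKO libraries. Peaks from 102569949 to 102570909 and from 102510780 to 102512080 on chromosome 4 lie in Pde4b, which encodes a phosphodiesterase that degrades cAMP, with means over the 3 control libraries of 3042 ± 365 (SD, n = 3) and 2368 ± 326 (SD, n = 3). The former is 334 bp from an annotated start of a Pde4b transcript. The peak from 124609754 to 124610938 on chromosome 2 is centred 50 bp from a transcript start of Sema6d, a transmembrane semaphorin, and its GC content of 67.8% was far above the median of 45.2% for remote peaks. The fifth, from 109651618 to 109653606 on chromosome 13, is in an intron of Pde4d, another cAMP phosphodiesterase. None of the 5 passed the limma test for a difference between genotypes, with adjusted p from 0.12 to 0.57 and log2 fold changes from -0.21 to 0.17. These calls depend on single libraries and on scaling. The Rad51b peak was called lower with the other scalings, at -0.32 to -0.36, and without control 2, at -0.29. Without control 3, the Pde4b peak from 102569949 and the Sema6d peak were called higher, at 0.25 and 0.26 instead of 0.16 and 0.17.

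Muscle stem cell markers were checked at the peak nearest to their start site. All 10 markers on the list had a peak within 1000 bp, with control means from 549 ± 20.4 (SD, n = 3) at Vcam1 to 3797 ± 705 (SD, n = 3) at Pax7, the factor that defines MuSCs. Of these, Pax7 was lower and Vcam1 higher in Taf4a sKO libraries (log2 fold changes -0.32 and 0.35, adjusted p = 0.03 and 0.018 by limma). Of 5 haematopoietic markers, Ptprc, Cd3e and Itgam had no peak and the others none within 1000 bp, although the peak assigned to Csf1r was higher in Taf4a sKO libraries (log2 fold change 0.90, adjusted p = 0.0001). Of 5 endothelial markers Emcn had no peak, and Pecam1 and Cdh5 had none within 1000 bp. The promoter peaks of the other endothelial markers, Tek and Kdr, summed to 1320, 1147 and 1648 in control and 1782, 1802 and 1704 in Taf4a sKO libraries without overlap, and Tek, the more abundant, was higher (log2 fold change 0.40, adjusted p = 0.01 by limma). The peak assigned to Myh11 of smooth muscle was higher too (log2 fold change 0.47). Of 5 myofibre markers, Acta1 was lower at a peak 3196 bp from its start (-0.67), and Myh4, Myh1, Ckm and Tnnt3 did not pass the test (0.48, 0.10, -0.05 and -0.07). The Schwann cell marker S100b and the pericyte marker Rgs5 had no peak, and the peak of Sox10 was lower (log2 fold change -1.24, adjusted p = 0.0014 by limma). Markers of mesenchymal cells moved with genotype: the summed value at the promoter peaks of Col1a1, Dcn and Twist2 was 1379, 1162 and 1516 in control and 2208, 2103 and 2083 in Taf4a sKO libraries. The groups do not overlap in this sum. Of the 5 mesenchymal markers, Col1a1, the most abundant, Dcn and Twist2 were higher (log2 fold changes 0.63, 0.84 and 0.97), Pdgfra was lower (-0.68) and Ly6a had no peak, and the summed value at the 10 MuSC markers was 17889, 14943 and 18545 against 17307, 16460 and 16507. The part of these other cell types in the results on remote peaks was not tested. In these bulk libraries, fewer cells with an open site and less accessibility per cell cannot be told apart.

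The targeted gene, Taf4, lies on chromosome 2 from 179912152 to 179976646, and its exon 12, one of those flanked by loxP sites, is covered by the peak from 179922849 to 179923263. There the libraries had 65, 78 and 137 in control and 44, 22 and 25 in Taf4a sKO MuSCs (log2 fold change -1.58, adjusted p = 0.00034 by limma). The genotypes did not overlap, although signal remained. A peak over exon 7, outside the deleted part, was lower too, with 253, 249 and 302 against 140, 145 and 165, while the promoter peak had 2305, 1998 and 2375 against 2095, 2124 and 2104 (adjusted p = 0.59).

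The comparison of genotypes asks where chromatin opened or closed after loss of Taf4a. Remote peaks changed in both directions, and a larger share of them than of all peaks was lower or lost. Of the 2254 remote peaks with a mean value above 10 over the 6 libraries, 614 (27.2%) were higher and 571 (25.3%) were lower in Taf4a sKO MuSCs at an adjusted p under 0.05 in limma. Over all 75384 peaks tested, 28.0% were higher and 13.9% were lower. With the thresholds of the study's methods, a change of the group means beyond 2-fold without a test, 214 remote peaks (9.49%) were gained and 367 (16.3%) were lost, where all peaks gave 7.02% gained and 5.36% lost. Nearer peaks without a Gene ID gave 8.98% gained and 6.23% lost, and peaks with a Gene ID 4.92% and 3.75%. Losses made up 63.2% of the altered remote peaks, against 41.0% and 43.3% in the other classes. The median log2 fold change was 0.052 over remote peaks and 0.105 over all peaks. The split between higher and lower peaks moved with the scaling. When libraries were scaled to equal summed value, which shifts the median of all peaks from 0.105 to -0.042, 503 remote peaks were higher and 725 lower, and gained peaks made up 26.1% of the altered remote peaks instead of 36.8%. The lower share was then 32.2% against 25.8% of all peaks and the lost share 18.6% against 6.96%, so that the excess of lost peaks changed less than that of lower ones. The difference of the remote median from that of all peaks was -0.054 with this scaling and -0.053 with the values as deposited, but -0.002 among peaks with a mean value above 50.

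Large losses were unevenly spread among the classes. The group mean fell more than 4-fold at 118 remote peaks (5.24%), against 1.13% of nearer peaks and 0.602% of peaks with a Gene ID, and rose more than 4-fold at 13 (0.577%), against 0.301% and 0.192%. Falls beyond 8-fold were seen at 36 remote peaks (1.60%) and at 0.200% of all peaks. All 3 Taf4a sKO values lay below all 3 control values at 28.5% of the remote peaks tested and at 18% of all peaks, and above them at 29.9% and 32.3%.

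The share of lower peaks grew with distance from annotated peaks. Among peaks without a Gene ID, 14.7% were lower at distances under 20000 bp, 16% from 50000 to 100000 bp, 19.1% from 100000 to 200000 bp, 23.8% from 200000 to 500000 bp and 32% at 500000 bp or more. The share of higher peaks was 32.9% in the nearest class, 33.2% from 100000 to 200000 bp, 28.4% from 200000 to 500000 bp and 22.3% beyond. Lost peaks went from 5.36% to 22.3% and gained peaks from 8.45% to 9.69% between the nearest and the farthest class. The median value fell along the same axis from 162.5 to 78.3 and the median GC content from 49.7% to 43.4%, and their part in this was not tested.

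**Figure D1:**
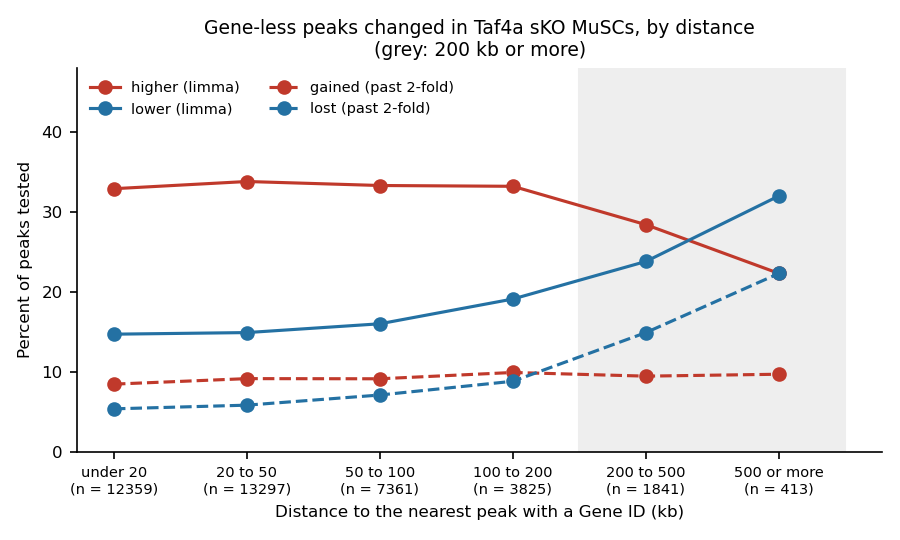
Percent of peaks without a Gene ID that were higher or lower (limma, solid lines) or gained or lost (beyond 2-fold, dashed lines) in Taf4a sKO MuSCs, on the vertical axis, by distance in kb to the nearest peak with a Gene ID. In the grey range, which holds the remote peaks, the lower share reaches 32% and passes the higher share of 22.3%.

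Since remote peaks were weaker, they were compared with the other classes at like signal, in strata that were chosen after the data were seen. With a mean value from 10 to 50, 29.8% of 533 remote peaks were lost, against 17.3% of nearer peaks and 15.7% of peaks with a Gene ID. From 100 to 200 the shares were 13.1%, 4.83% and 4.59%, and above 500 they were 4.5% of 200 remote peaks, 0.666% and 0.288%. The lost share of remote peaks was the highest of the 3 classes in all 5 strata. Gained shares were 10.6%, 9.48% and 7.08% from 100 to 200 and 4.00%, 5.06% and 1.43% above 500, where the nearer peaks had the highest.

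**Figure D2:**
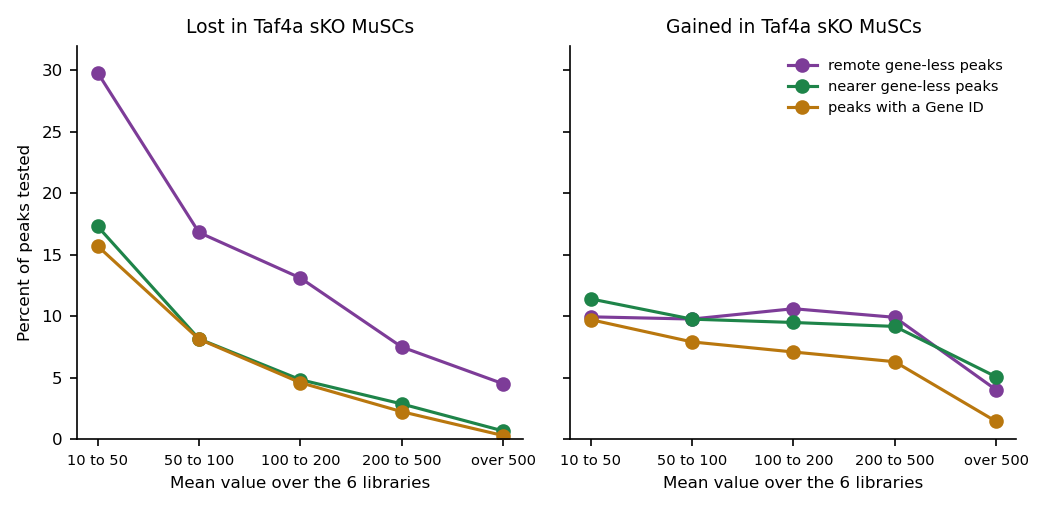
Percent of tested peaks lost (left) and gained (right) in Taf4a sKO MuSCs on the vertical axes, by mean value over the 6 libraries, for remote peaks, nearer peaks without a Gene ID and peaks with a Gene ID. The line of remote peaks lies above the others at every signal level for lost peaks, from 29.8% in the weakest to 4.5% in the strongest stratum.

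The 5 lower remote peaks of smallest p lost most of their signal in every library. The peak from 8112266 to 8113120 on chromosome 2, between genes and 603130 bp from the start of Celf2, a splicing regulator, had values of 860, 865 and 861 in control and 83, 52 and 54 in Taf4a sKO libraries, 13.5-fold lower (log2 fold change -3.79 ± 0.17 SE, adjusted p = 2.5e-12 by limma). The other 2 peaks of the table within 500000 bp were remote peaks too, and both were lost, with log2 ratios of -2.43 and -3.37. On chromosome 3, the peak from 120813803 to 120815116, in an intron of the long non-coding RNA gene 6530403H02Rik, went from 435, 448 and 462 to 47, 44 and 41 (log2 fold change -3.32 ± 0.16 SE, adjusted p = 5.5e-12 by limma).
Peaks from 94565122 to 94565702, in an intron of the long non-coding RNA gene Gm32647, and from 94720696 to 94721370 on chromosome 7 lie 1349502 and 1193881 bp from any peak with a Gene ID. The former had values of 253, 188 and 218 in control and 11, 8 and 14 in Taf4a sKO libraries, 18.4-fold lower, the greatest fold of the 5, and the latter 176, 142 and 139 against 7, 10 and 13. Within 500000 bp of the latter, all 7 other peaks of the table were remote and lost. The fifth, from 53067750 to 53068889 on chromosome 11, is in an intron of Fstl4, a follistatin-like gene, with 1339, 1171 and 1176 against 348, 333 and 329 (log2 fold change -1.86 ± 0.12 SE, adjusted p = 1.5e-10 by limma). Its loss of 3.6-fold was the least of the 5, and of the 28 other peaks within 500000 bp 7 were higher and 3 lower.

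The 5 higher remote peaks of smallest p rose 3.0-fold to 7.0-fold. On chromosome 11, the peak from 15918966 to 15920531, 337975 bp from the start of Vstm2a, had values of 303, 255 and 249 in control and 1091, 1083 and 1173 in Taf4a sKO libraries, 4.1-fold higher (log2 fold change 2.05 ± 0.12 SE, adjusted p = 9.2e-11 by limma). The peak from 41651996 to 41653300 on chromosome 1, 847047 bp from the start of Tmem182, went from 325, 299 and 312 to 985, 907 and 950 (log2 fold change 1.60 ± 0.12 SE, adjusted p = 1.8e-09 by limma), while none of the 4 other peaks within 500000 bp was called. In an intron of Slc9a9, which encodes an endosomal sodium and proton exchanger, the peak from 95192944 to 95193625 on chromosome 9 went from 197, 152 and 185 to 659, 563 and 711 (log2 fold change 1.85 ± 0.14 SE, adjusted p = 2.9e-09 by limma). Those from 31393852 to 31395055 on chromosome 3, near Slc7a14, and from 89766139 to 89766964 on chromosome 17 rose 3.1-fold and 7.0-fold. The latter was at 75, 50 and 43 in control and at 454, 301 and 434 in Taf4a sKO libraries, and no other peak lies within 500000 bp of it.

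**Figure D3:**
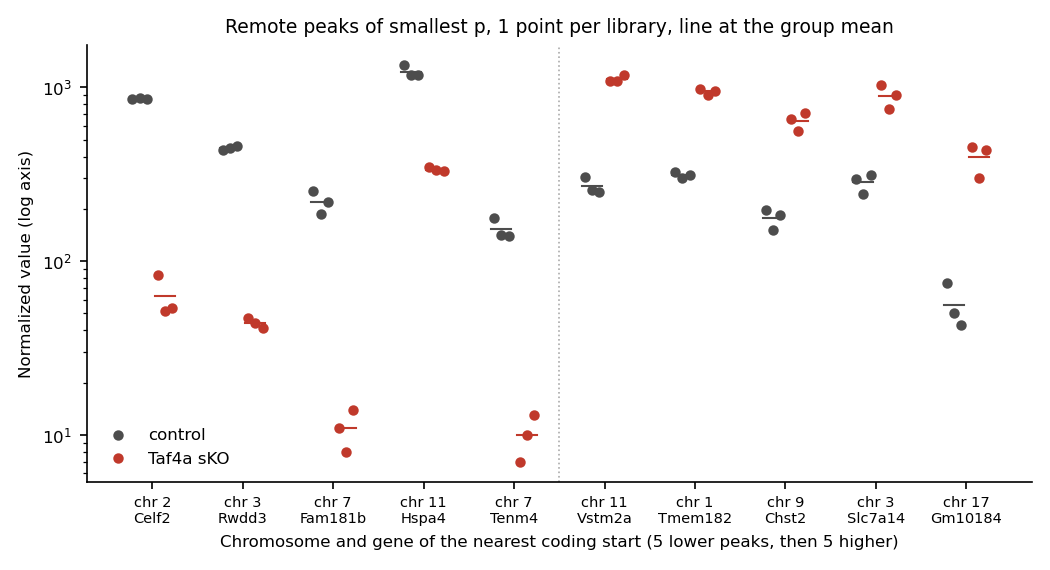
Normalized value (vertical log axis) of the 5 lower and 5 higher remote peaks of smallest p, with 1 point per library and a line at each group mean, control in grey and Taf4a sKO in red. The genotypes do not overlap at these peaks, as the choice required, and both peaks on chromosome 7 end at means of 11 and 10.

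The most remote peaks, of which 4 are described, lay 2329381 to 3073672 bp from the nearest peak with a Gene ID and did not share a direction. On chromosome 1, 2 of them lie in the desert beside Cntnap5a, a contactin-associated adhesion molecule. The peak from 114938327 to 114938529 fell from 58, 45 and 39 to 19, 10 and 14 (adjusted p = 0.00024), and the one from 114673624 to 114674505 rose from 670, 661 and 859 to 1188, 941 and 990 (adjusted p = 0.0021). The peak from 90889712 to 90890085 on chromosome 14, in the desert beside the protocadherin gene Pcdh20, had 117, 79 and 89 in control and 56, 49 and 74 in Taf4a sKO libraries (adjusted p = 0.017), a call that was lost without control 1 or without Taf4a sKO 2. The one beside Slitrk1, a gene for a synaptic adhesion protein, did not pass the test (adjusted p = 0.83) and varied from 63 to 202 between control libraries. At the limit of the rule, the 3 members just inside it, at 200065 to 200136 bp, had control means of 113, 152 and 156 and Taf4a sKO means of 110, 130 and 124. The 3 peaks just outside, at 199831 to 199985 bp, had 274, 102 and 58.0 against 265, 150 and 69.7.

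Remote peaks came in groups. Another remote peak was centred within 50000 bp of 1715 of the 2255 (76.1%), and joining peaks over gaps of up to 50000 bp gave 946 runs, of which 540 held a single peak and 85 held 5 or more. These 85 runs held 878 remote peaks (38.9%), with a median gap of 8587 bp between neighbours within runs of any size. Nearer peaks without a Gene ID, which are far more numerous, had a neighbour of their own class within 50000 bp in 92.2%. Neighbouring remote peaks mostly shared their direction. Of the 380 adjacent pairs within a run in which both peaks were called, 324 (85.3%) had the same direction, 178 higher and 146 lower. At gaps under 20000 bp, where most pairs lie, the classes were alike, with the same direction in 85% of pairs of called remote peaks, 81.9% of nearer peaks and 83.1% of peaks with a Gene ID. At gaps of 100000 to 200000 bp the shares were 83.9% of 31 remote pairs, 60% of 493 pairs of nearer peaks and 74.5% of 310 pairs of peaks with a Gene ID. At these gaps a lower peak was followed by a lower one in 64.3%, 27.4% and 21.1% of cases, and a higher peak by a higher one in 33.3%, 27.9% and 32.7%. Few remote pairs lie at such gaps, and adjacent peaks share libraries and loci, so no test is given. Of the 85 runs of 5 or more, 24 had higher but no lower peaks, 17 lower but no higher ones, 41 had both and 3 neither.

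The largest runs lie in long genes and had more higher than lower peaks. The largest, 57 peaks over 401356 bp of chromosome 4 from 102290565 to 102691921, spans the 3′ part of Pde4b and the sequence beyond it. Its summed value was 25733, 24861 and 30474 in control and 35827, 34767 and 34597 in Taf4a sKO libraries, so that each Taf4a sKO sum lay above each control sum. In this run 26 peaks were higher and 5 lower, with log2 fold changes from -1.37 to 1.24. A further 40 peaks over 490681 bp of chromosome 13 lie within Pde4d, where 11 were higher and 4 lower, and the sums of 19973, 17919 and 21656 against 22935, 22945 and 21733 did not overlap, by a narrow margin. In Rora, which encodes a retinoid-related orphan nuclear receptor, 28 peaks over 266804 bp of chromosome 9 included 11 higher and 3 lower ones, and one of them, from 69044053 to 69045076, had 74, 69 and 99 in control and 426, 282 and 323 in Taf4a sKO libraries. The run of 28 peaks on chromosome 2 from 178629853 to 179000939, as large as that of Rora, lies in a desert beside Cdh26 and moved the other way, with 12 lower and 2 higher peaks and sums of 4742, 4550 and 5052 against 4182, 3647 and 3719. It ends 911213 bp from Taf4, and in a run of 8 peaks nearer to Taf4, at 142694 bp, 4 were higher and 1 lower. The part of this position was not tested. With libraries scaled to equal summed value, the Pde4b run had 23 higher and 7 lower peaks, that of Pde4d 9 and 6, that of Rora 10 and 6 and that beside Cdh26 none and 14.

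In 5 runs of 5 or more, every member was lower in Taf4a sKO MuSCs, and no such run was higher throughout. These runs were singled out after their values were seen. On chromosome 16 from 9211562 to 9291933, all 10 peaks fell, with log2 fold changes from -1.90 to -0.81 and summed values of 3076, 2798 and 3905 in control against 1643, 2063 and 1319 in Taf4a sKO libraries. On chromosome 2 from 134335818 to 134371452, on the side of Hao1, 6 peaks had sums of 499, 471 and 558 against 55, 44 and 44, and log2 fold changes from -3.64 to -2.60. The remaining 3 runs had 5 peaks each, with median log2 fold changes of -2.72, -2.09 and -1.27. The first lies on chromosome 2 from 24405743 to 24428605, at Psd4 and Pax8. In it, 2 peaks in Psd4 had log2 fold changes of -1.25 and -1.43, and 2 in Pax8 -2.96 and -3.40. The other runs lie on chromosome 3 from 147128912 to 147167114 and on chromosome 12 from 5747557 to 5793744. An opposite pattern, also singled out after its values were seen, was found in Slc9a9, where 9 of 11 peaks were higher, none was lower and 7 were gained.

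**Figure D4:**
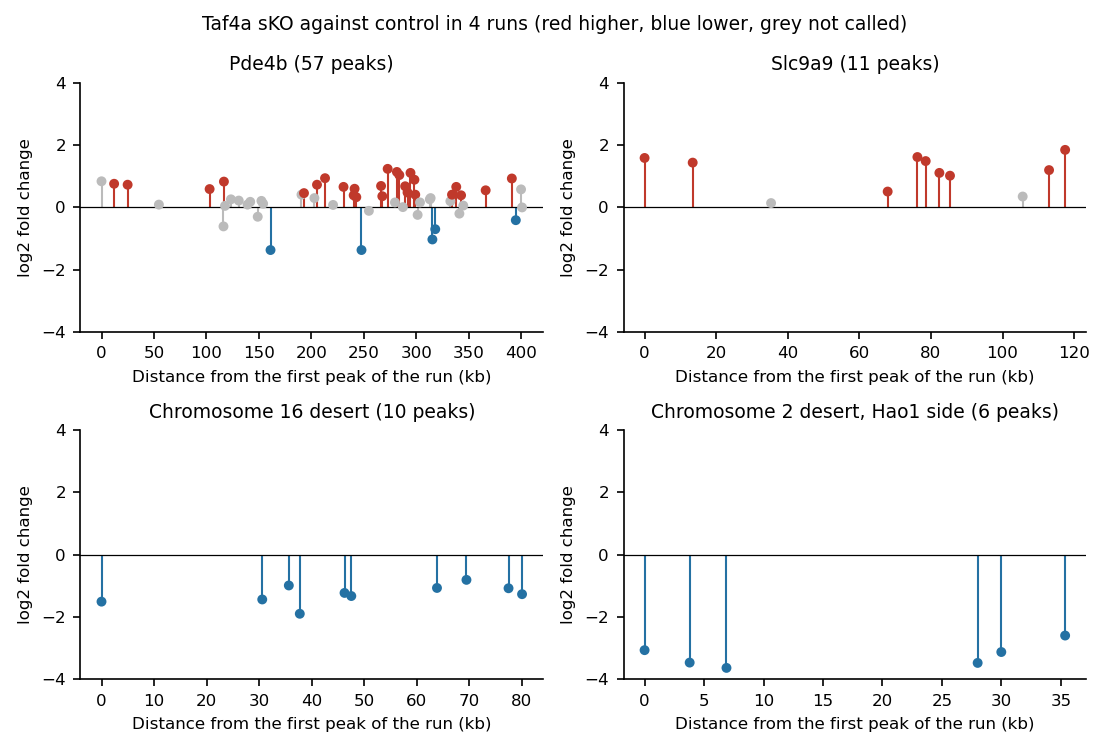
Log2 fold change of Taf4a sKO against control (vertical axis) of each peak in 4 runs of remote peaks, by distance in kb from the first peak of the run, in red where higher, blue where lower and grey where not called by limma. Pde4b has mainly small rises up to 1.24, Slc9a9 rises in 9 of 11 peaks, and the runs on chromosomes 16 and 2 fall at each of their 10 and 6 peaks.

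Remote peaks inside genes and between genes differed in balance. Of the 1026 tested that lie in a protein-coding gene body, 31.1% were higher and 19.3% lower, whereas of the 1112 outside every gene body 23.8% were higher and 31.6% lower, with 9.08% gained and 21.4% lost. The median values of these groups were 113 and 87.0. The 61 peaks within 1000 bp of a transcript start were lost least, with 2 lost and 1 gained, and had a median value of 236. With libraries scaled to equal summed value, 264 peaks in protein-coding gene bodies were higher and 268 lower, so the lean to higher peaks there depends on the scaling. The balance turned with distance from gene starts: of the 579 tested peaks at least 200000 bp from the start of any gene, 34.4% were higher and 18% lower (median log2 fold change 0.218), against 24.8% and 27.9% of the other 1675 (median -0.027). The share of lower remote peaks was thus greater far from annotated peaks but not far from gene starts. Among the 195 peaks outside gene bodies and at least 200000 bp from the start of any gene, 30.8% were higher and 22.1% lower.

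The remote peaks in protein-coding genes fell into 220 genes with a median length of 473 kb, against 17.4 kb for all protein-coding genes, and 26 genes with 10 or more held 499 of them. The 12 genes with the most, the last 5 of which tie at 19, are given by their counts, to be read against 28.0% higher and 13.9% lower over all peaks. In Pde4b, 45 remote peaks had a summed control value of 18271 ± 2022 (SD, n = 3) against 24716 ± 369 (SD, n = 3) after loss of Taf4a, with 21 higher and 3 lower. Arhgap24, a GTPase-activating protein for Rac, had 14 higher and 1 lower of 19, with sums of 5743 ± 592 (SD, n = 3) and 7569 ± 232 (SD, n = 3), and Pde1c, a calmodulin-dependent phosphodiesterase, 12 higher and none lower of 19, with sums of 3663 ± 263 (SD, n = 3) and 4712 ± 64.4 (SD, n = 3). Ank3, which encodes the membrane adaptor ankyrin-G, had 11 higher and 3 lower of 24 with 5 gained, and Rad51b 14 higher and 3 lower of 25. Of the 21 peaks in Robo1, a receptor for Slit ligands, 5 were higher and none lower, and of the 20 in Clstn2, a calsyntenin, 6 were higher and 1 lower. Sox6, a transcription factor that represses slow-fibre genes in muscle, had 8 higher and 2 lower of 19. The tumour suppressor Wwox had 2 higher and 3 lower of 19, and Cdkal1, a tRNA-modifying enzyme, 6 of each. Among the next genes in order, named after its values were seen, Dab1, an adaptor of reelin signalling, had 11 lower and 3 higher of 17, with sums of 2618, 2155 and 2509 in control and 2112, 1587 and 1740 in Taf4a sKO libraries. With libraries scaled to equal summed value, the ratio of the sums fell to 1.23 in Pde4b, 1.19 in Arhgap24 and 1.03 in Pde4d. It was 0.99 in Sox6 and 0.67 in Dab1, so that no rise of the sums remained in Sox6. There, 5 peaks were then higher and 4 lower.

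**Figure D5:**
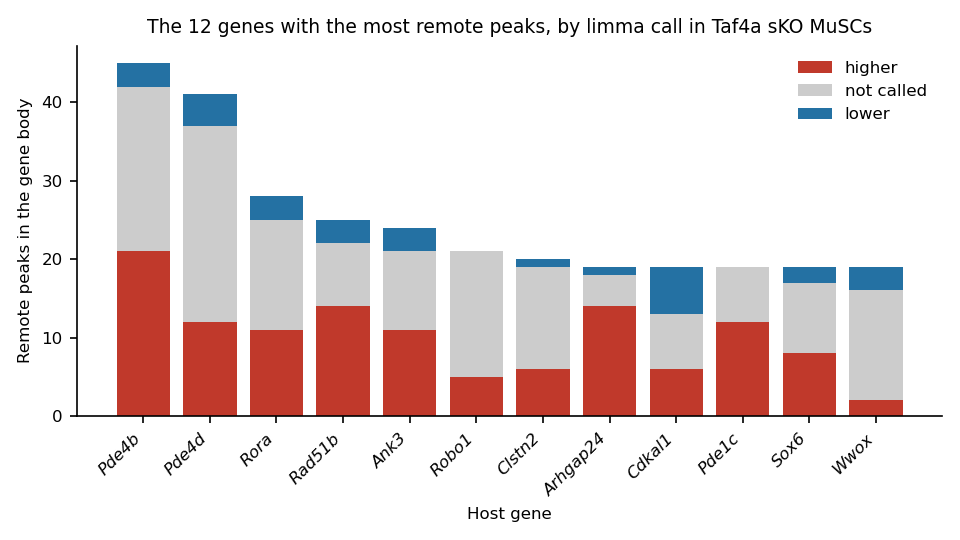
Number of remote peaks (vertical axis) in each of the 12 protein-coding genes that hold most, split into higher, not called and lower in Taf4a sKO MuSCs by limma. Pde4b and Pde4d hold 45 and 41, higher peaks outnumber lower ones in 10 of the 12 genes, and Cdkal1 has 6 of each.

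Gene families known to flank or fill deserts were read from the gene that holds each remote peak or, outside genes, has the nearest coding start. Cadherins and protocadherins, calcium-dependent adhesion molecules, accounted for 82 remote peaks at 16 genes, of which 20 were higher and 26 lower (median log2 fold change -0.075). These counts lie near the shares of 27.2% higher and 25.3% lower over all remote peaks. Cdh26 had the nearest coding start to 22 of them. Cdh13 had 6 higher and 1 lower of 14, whereas Cdh9 had 4 lower and none higher of 5 and Pcdh17 4 lower and 1 higher of 7. Developmental transcription factors accounted for 84 peaks at 23 genes, 20 higher and 20 lower, led by Sox6 with 21 and Sox5 with 11. The balance of these factors moved to 16 higher and 31 lower with libraries scaled to equal summed value, and that of the cadherins to 15 and 30. Long neuronal genes of another list had 68 peaks with 19 in each direction. Among them, Macrod2, a mono-ADP-ribosyl hydrolase gene, had 6 of 7 peaks lower, each of which was also lost. Olfactory and vomeronasal receptor genes, which form very large clusters in the mouse genome, had 3 remote peaks in all, 2 higher and none lower.

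Remote peaks were found on each of chromosomes 1 to 19, from 28 on chromosome 19 to 212 on chromosome 4, and made up 0.926% of the peaks of the gene-rich chromosome 11 and 5.78% of those of chromosome 16. The lower share was highest on chromosome 2 at 36.6%, with 26.9% lost, and lowest on chromosome 10 at 16.7%. Without chromosome 2, which carries Taf4, 24.3% of the remote peaks were lower and 15.3% lost, against 13.9% and 5.36% of all peaks. On chromosome X, which the rule leaves out, 87 peaks without a Gene ID were as far from annotated peaks, and 39.1% of them were higher and 17.2% lower.

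The DNA of remote peaks was poorer in GC, with a median of 45.2% against 48.7% for nearer peaks and 53.7% for peaks with a Gene ID. The repeat-marked share, at 8.12%, 8.57% and 7.56%, was alike, and 51 remote peaks (2.26%) were marked as repeat over 50% or more of their length. Motifs were searched on both strands of the 300 bases around each centre. The AP-1 motif TGANTCA, bound by Fos and Jun dimers, was present in 28.5% of remote peaks and in 22% of all peaks. The E-box CAGCTG, a form bound by MyoD and Myf5, was present in 33.0% and 29.1%, the TEAD motif GGAATG in 22.4% and 19%, the RUNX motif TGTGGTT in 8.25% and 6.50%, and the NF-Y motif CCAAT in 37.6% and 32.2%. The FOX motif TGTTTAC was in 4.66% and 3.75%. Promoter motifs were rarer, with the GC box GGGCGG in 5.28% against 20% and the ETS motif CCGGAAGT in 0.266% against 1.43%. The CTCF motif was in 2.53% and 3.97%, the MEF2 motif in 1.11% and 0.712% and the NFI motif in 0.754% and 0.676%. The last 3 are longer or degenerate motifs given by name. For all motifs but CTCF, nearer peaks without a Gene ID lay closer to remote peaks than all peaks did. Their shares were 26.5% for AP-1, 31.7% for the E-box, 21% for TEAD, 7.46% for RUNX and 33.3% for NF-Y. For FOX, the GC box, ETS and CTCF they were 4.37%, 9.13%, 0.44% and 4.31%. Much of the contrast with all peaks is thus shared by peaks without a Gene ID. Matches to different motifs can share bases at their ends, as between TGANTCA and CAGCTG, and a match is not a bound site. Over whole peaks, which are longer in the other classes, AP-1 was in 38.4% of remote and 33.5% of all peaks and MEF2 in 1.46% and 1.37%. There the order turned for the E-box (44.6% and 45.9%), TEAD (33.3% and 34.4%), NF-Y (51.7% and 52.8%), FOX (7.98% and 8.09%) and NFI (0.976% and 1.26%), and RUNX was in 12.9% of both.

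The E-box was more frequent among lower than among higher remote peaks. It was present in 42.7% of the lower, 33.7% of the uncalled and 22.8% of the higher remote peaks. Counted the other way, 32.8% of the 744 remote peaks with the E-box were lower and 18.8% higher, against 21.7% and 31.4% of those without it, at median values of 104 and 93.8. With libraries scaled to equal summed value, 301 of those with the E-box were lower and 109 higher, against 424 and 394 of those without it. The lower peaks had the highest share in the other classes too, with 44.7%, 31.1% and 26.7% of nearer peaks and 41.6%, 23.8% and 25.6% of peaks with a Gene ID. The AP-1 motif, by contrast, was present in 27.3% of the lower and 31.8% of the higher remote peaks, a smaller gap than the 20.7% and 33.6% of nearer peaks. CTCF matches were rare among changed remote peaks, at 1.05% of lower and 0.814% of higher ones against 4.30% of those not called. The lower, higher and uncalled shares were 3.24%, 0.651% and 7.02% in nearer peaks. Among peaks with a Gene ID they were 4.11%, 0.795% and 4.73%. The low share among higher peaks was thus common to the classes, and that among lower peaks rests on few remote peaks. The lower and higher remote peaks differed little in GC content, with medians of 44.5% and 45.1%, but the lower ones had the lower median value, 71.7 against 147.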

How the data were processed

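ATAC-seq of 3 control and 3 Taf4a sKO libraries was analysed. The authors trimmed reads with Trimmomatic 0.39, aligned them to mm10 with STAR 2.7.11b, removed duplicates with Picard 3.1.1 and multi-mapping reads, which limits signal in repeats, and called peaks per library with MACS without an input, then unified them and counted reads with featureCounts. The deposited score of each peak is this count scaled for sequencing depth and rounded. A shift of reads for Tn5 is not described in the sources used here. No per-sample column was left unused.

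Since the scores are not counts, limma 3.58.1 (R 4.3.3, trend and robust) was run on log2(score + 1) over the 75384 peaks with a mean above 10, with Benjamini-Hochberg adjustment over all of them. A fold change is on this scale and understates changes of low peaks. The script was tested on simulated data. Gained and lost peaks had a log2 ratio of group means, pseudocount 1, beyond 1 in either direction. GENCODE vM21 held 99.77% of the annotated genes, 99.31% of them with identical coordinates. Sequences and repeat marks came from GRCm38.p6. Remote peaks, gene lists and tests were chosen with earlier results of these data known.

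Peaks named are the 5 of highest mean, the 5 of smallest p in each direction among called peaks whose genotypes do not overlap, the 5 most remote, the 3 largest runs and the 3 on each side of the distance limit, and the genes are their hosts or neighbours and the 10 hosts with most remote peaks, extended to 12 by ties. Others were named after their values were seen. One of the most remote peaks, one marker and one gene list are not reported here. Alternatives covered scaling, minimum mean, pseudocount, thresholds, distance, run gap, window, replicate block and each library left out.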

Additional observations from a re-analysis of the deposited data

How the results depend on the processing

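Counts of the 2254 remote peaks tested kept within 1.5 times of 614 higher, 571 lower, 214 gained and 367 lost under the other scalings, without a minimum, with a pseudocount of 5, without trend and robust moderation and with any library left out. The median log2 change of remote peaks turned from 0.052 to -0.059 (TMM), -0.06 (median of ratios) and -0.096 with equal summed value. A minimum mean of 50 left 208 lost peaks, and a log2 threshold of 1.5 left 216 lost and 49 gained ones. At 100000 bp the rule gave 1885 higher, 1302 lower, 593 gained and 704 lost peaks, a median of 0.123 and a ratio of summed shares of 1.035, against 0.973 at 200000 bp. At 500000 bp it gave 92 higher, 132 lower, 40 gained and 92 lost peaks, a median of -0.138 and a ratio of 0.908. The median value of remote peaks was 0.669 of that of nearer peaks without a Gene ID, or 0.773 per kb, and 62.1% or 83.1% had a remote neighbour within 20000 or 100000 bp. Inside protein-coding gene bodies lay 45.5%. Chosen after seeing the data, the 1112 peaks outside every gene body gave 265 higher and 351 lower (23.8% and 31.6%), and the 579 at least 200000 bp from every gene start 199 and 104 (34.4% and 18%), which turns the balance. All peaks gave 28.0% and 13.9%.

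With 1 library left out, higher peaks ranged from 448 (without control 2) to 729 (without control 3), lower ones from 511 to 569, gained ones from 195 to 263, lost ones from 343 to 397, the median from 0.008 to 0.115 and the ratio of shares from 0.965 to 0.979. With the replicate block, 654 were higher and 596 lower. Same-numbered libraries come from different mice and their deviations correlated at 0.11, -0.118 and -0.029, so the numbers do not pair them.

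Of 363 values of named peaks under alternatives 16 changed sign, at 5 peaks that were not called, and all 140 of the 10 peaks of smallest p kept direction and call. The peak chr13:109651618-109653606 went to -0.03, -0.03 and -0.06 with the 3 scalings in the order above and ranged from -0 to 0.14 with 1 library left out. The peak chr4:102510780-102512080 went to -0.03, -0.03 and -0.07 and ranged from -0.03 to 0.17, and chr14:109214756-109215233 went to -0.02 with equal summed value and ranged from -0.29 to 0.54. Those at chr1:81316529-81317164 and chr16:46696871-46697924 ranged from -0.2 to 0.09 and from -0.21 to 0.21. The peak chr14:90889712-90890085 lost its call without control 1 (-0.51) or Taf4a sKO 2 (-0.53). Just outside the distance limit, the peak chr5:128800584-128801121 (0.54) lost its call with each of the 3 scalings (0.43, 0.43 and 0.4), without trend and robust moderation, and without control 2, control 3, Taf4a sKO 1 or Taf4a sKO 3 (0.35 to 0.56). The cause of these changes was not tested. Read depth, which sets the precision of weak peaks, was not recovered.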
